A study of Homo sapiens with 6 samples.

Results

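The MYC, MAX and MXD network was followed in PC-3 cells, an established human prostate cancer cell line, with and without an inducible tristetraprolin (TTP) transgene. Its 10 genes, MYC, MAX, MXI1, MXD1, MXD3, MXD4, MNT, MLX, MGA and MLXIP, were matched by gene symbol in the deposited gene-level table and make up 10 of the 22933 symbols there. Where a symbol stood at several assembled loci, the locus with the most RefSeq names was used, then the one with the highest summed value. All 10 genes passed the expression filter, which asked for 1 FPKM or more in either group and a value above 0 in each, as did 13004 symbols in all.

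RNA-Seq was performed on 6 samples, 3 in each of 2 groups. All cells carried the rtTA2 transactivator from a first retrovirus and were selected with G418. The tdTom group then received pRetroX-Tight-pPGK-tdTomato, and the TTP-tdTom group received pRetroX-Tight-TTP-pPGK-tdTomato, in which a tetracycline-responsive promoter drives TTP, and cells of both groups were sorted by flow cytometry, with no cloning step stated. Doxycycline (Dox) was given to both at 300 ng/ml, 4 h before collection. The control thus shares the transactivator, the reporter and the Dox. None of the 6 samples was without Dox. A difference between the separately transduced and sorted lines therefore cannot be told apart from an effect of induction.

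The MYC network works through dimers. MYC is a basic helix-loop-helix zipper transcription factor that pairs with MAX, binds E-box sequences and activates genes of growth, ribosome production and metabolism, and its gain is common in advanced prostate cancer. The MXD proteins, MNT and MGA compete for MAX and repress the same kind of sites, the MXD proteins and MNT by recruiting the SIN3 and histone deacetylase complex. A parallel arm pairs MLX with the nutrient sensor MLXIP, also called MondoA. TTP, encoded by ZFP36, binds AU-rich elements in 3′ untranslated regions and delivers the mRNA for decay.

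The deposited values were FPKM (fragments normalised to transcript length and library size), with 1 value per group and locus, the authors' value over the 3 samples. The table gives neither the spread between replicates nor the depth reached in each sample, so no difference below is given with a replicate error and none was tested here; the authors' own test columns were not used. ZFP36 itself had an FPKM of 5.56 in tdTom cells and 5.54 in the group labelled TTP-tdTom. The locus of the induced gene therefore showed no rise, whether transgene fragments were counted there was not analysed here, and every direction below is for the group labelled TTP-tdTom. Of the epithelial markers, KRT8, KRT18 and EPCAM had FPKM from 15.1 to 98.2 in the tdTom group, while CDH1 was at 0.119. Among markers of other cell types, PTPRC was at 0.243 and 0.566 and COL1A1 at 4.34 and 4.56 in tdTom cells and the group labelled TTP-tdTom. Over the 13004 expressed symbols the median log2 ratio of the group labelled TTP-tdTom over tdTom was -0.23, so member ratios are given as deposited and relative to that median.

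MYC and MAX carried most of the network's mRNA. MAX had the highest FPKM of the 10 genes, 103.1 in tdTom cells and 85.8 in the group labelled TTP-tdTom. MYC was next, with 54.9 and 39.7. In the tdTom group these genes made up 49.0% and 26.1% of the summed FPKM of the network, and MXI1, the most abundant MXD gene, came next with an FPKM of 12.2. The remaining genes lay between 9.60 for MLXIP and 1.03 for MXD1, which is at the limit of the filter. The order in the tdTom group was MAX, MYC, MXI1, MLXIP, MGA, MLX, MXD3, MXD4, MNT and MXD1. MXI1 lay below MLXIP and MGA in the group labelled TTP-tdTom, and all the other genes kept their order relative to each other. Which neighbours in this order differ beyond their spread cannot be given from 1 value per group.

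**Figure D1:**
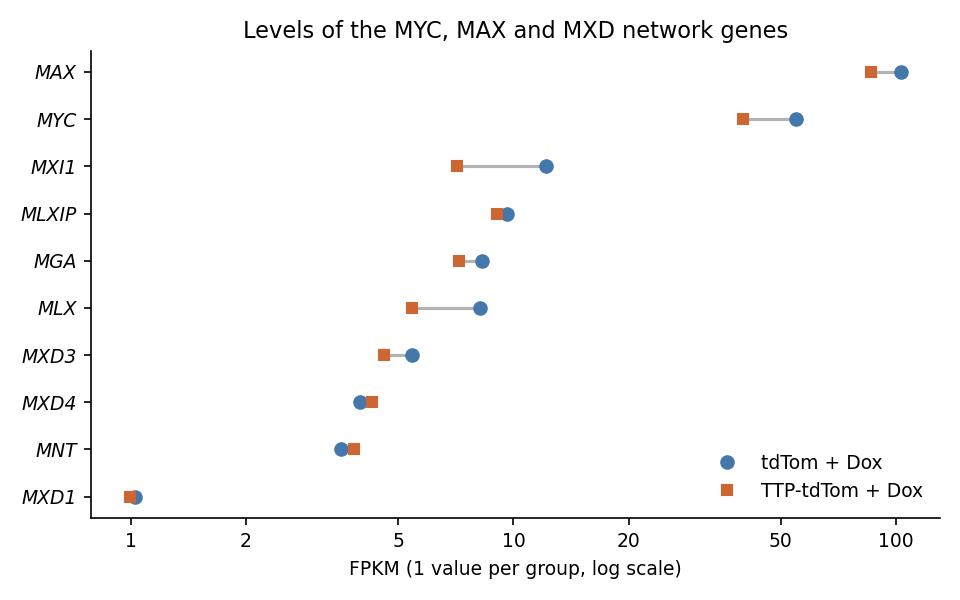
FPKM of the 10 network genes on a log axis, 1 value per group, with circles for the tdTom group and squares for the group labelled TTP-tdTom, and a grey line joining the values of a gene. MAX and MYC stand above the rest, MXI1 and MLX have the longest lines to the left, and MNT and MXD4 lie slightly to the right in the group labelled TTP-tdTom.

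Of the 10 genes, 8 were lower in the group labelled TTP-tdTom as deposited and 2 were higher, while 78.5% of all expressed symbols were lower, and MAX, MXD1, MXD3, MGA and MLXIP turned to higher under at least 1 other scaling. At least 1.5-fold lower were 2 of the 10, MXI1 and MLX, against 22.8% of expressed symbols. None was at least 1.5-fold higher, against 3.90% of expressed symbols. The shares of the network are thus near those of all genes, and its median log2 ratio of -0.22 is near the median of -0.23 over all. In RNA from whole cultures, fewer cells that express a gene and less of its RNA in each cell cannot be told apart. Relative to the median of all expressed symbols, 5 members lay below it and 5 above it, and 0 of the 10 reached 1.5-fold in either direction, where 13.6% of all expressed symbols were lower and 6.29% higher by that much.

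**Figure D2:**
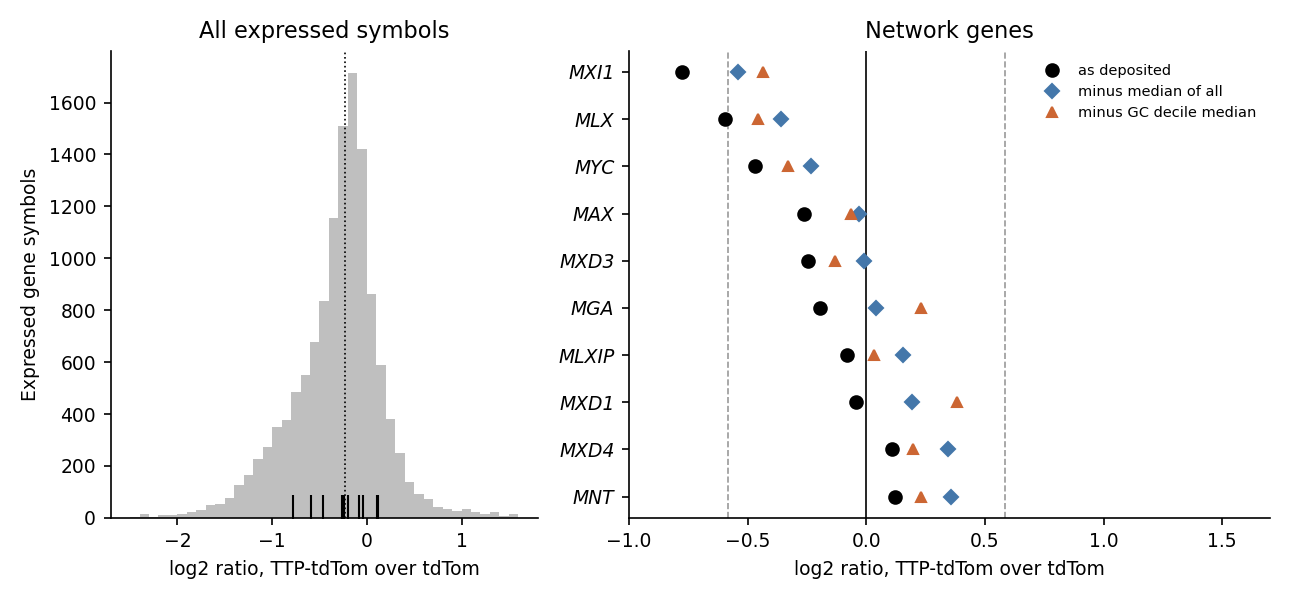
Left, the log2 ratio of the group labelled TTP-tdTom over tdTom for expressed symbols (grey bars, shown from -2.5 to 1.6), with the 10 network genes as ticks and the median of -0.23 dotted. Right, the log2 ratio of each gene as deposited (circles), relative to that median (diamonds) and relative to the median of its decile of transcript GC content (triangles), with dashed lines at 1.5-fold; only the circles of MXI1 and MLX pass them.

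MYC, the activator of the network, maps to chromosome 8 (GRCh37), 128748248 to 128754770. Its FPKM of 54.9 in tdTom cells and 39.7 in the group labelled TTP-tdTom gave a log2 ratio of -0.47, or 72.3% of the tdTom level. It was thus lower by 1.38-fold, short of 1.5-fold, and 71.0% of expressed symbols had a higher ratio. Relative to the median of all expressed symbols the log2 ratio of MYC was -0.23. A further locus under the symbol MYC held little, with an FPKM of 0.873 and 1.05. The long noncoding RNA gene PVT1, the downstream neighbour of MYC, had an FPKM of 30.5 and 23.3 and a log2 ratio of -0.39, close to that of MYC.

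MAX, the partner that MYC, the MXD proteins, MNT and MGA share, stood at 83.3% of its tdTom level, with a log2 ratio of -0.26 that turned to 0.13 under upper quartile scaling. It is -0.029 relative to the median, and 46.6% of expressed symbols had a lower ratio, so MAX stood in the middle of the distribution. The deposited table gives its locus, XLOC_114127 with 7 RefSeq names, the interval from 65380212 to 65569575 on chromosome 14 of GRCh37, which it also gives to the neighbouring CHURC1 and FNTB. A further 24 loci in this interval listed the symbol MAX with low values, up to an FPKM of 6.94 in tdTom cells and 2.78 in the group labelled TTP-tdTom. Of these small loci 14 were higher and 10 lower in the group labelled TTP-tdTom, and they were not used for MAX.

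Among the repressive partners of MAX, MXI1 had the lowest ratio. MXI1, on chromosome 10 of GRCh37 from 111967284 to 112047337, had an FPKM of 12.2 in tdTom cells and 7.11 in the group labelled TTP-tdTom. This is 1.71-fold lower, a log2 ratio of -0.78 or 58.4% of the tdTom level, and 15.1% of expressed symbols had a lower ratio. Relative to the median of all symbols its log2 ratio was -0.54, and relative to its GC decile -0.44, where MLX was lower with -0.46. As deposited the other MXD genes lay closer to their tdTom level, which did not hold for MXD4 under upper quartile scaling, at 0.50 against -0.38 for MXI1.

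MXD3, a family member known from proliferating cells, had an FPKM of 5.43 and 4.59 and a log2 ratio of -0.24, at the median of all symbols. It maps to chromosome 5 (GRCh37), 176730835 to 176740355. MXD1, the founding MXD gene, which maps to chromosome 2 (GRCh37), 70142173 to 70170076, and is typically induced in differentiation, was hardly expressed, with an FPKM of 1.03 and 0.995 and a log2 ratio of -0.043. MXD4, on chromosome 4 of the same build from 2248980 to 2263739, was 1.08-fold higher, with an FPKM of 3.97 in tdTom cells and 4.28 in the group labelled TTP-tdTom. So within the MXD family the log2 ratios ran from -0.78 for MXI1 to 0.11 for MXD4.

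MNT, a repressor expressed in most cell types, had an FPKM of 3.54 and 3.84 and a log2 ratio of 0.12. It maps to chromosome 17 (GRCh37), 2287354 to 2304258, and had the highest ratio of the 10 genes, with 13.9% of expressed symbols above it. MNT and MXD4 were the genes of the network with a higher FPKM in the group labelled TTP-tdTom, each by under 10% as deposited, and their log2 ratios were 0.35 and 0.34 relative to the median and 0.51 and 0.50 under upper quartile scaling. MGA, a large protein with a T-box as well as the zipper domain, had an FPKM of 8.27 and 7.22 and a log2 ratio of -0.20. MGA maps to chromosome 15 (GRCh37), 41952610 to 42064598, and its ratio was 0.039 above the median of all symbols.

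MLX and MLXIP are the partners of the parallel arm, and MLX had the lower log2 ratio of the pair. MLX, on chromosome 17 of GRCh37 from 40719078 to 40729849, had an FPKM of 8.18 in tdTom cells and 5.42 in the group labelled TTP-tdTom. Its log2 ratio of -0.59 is 1.51-fold lower, just past 1.5-fold, and 22.4% of expressed symbols had a lower ratio. MLX fell short of 1.5-fold relative to the median (-0.36) and to its GC decile (-0.46), under upper quartile scaling (-0.20) or the same FPKM sum (-0.54), and with a pseudocount of 1 (-0.52). MLXIP, on chromosome 12 of the same build from 122516652 to 122631944, had an FPKM of 9.60 and 9.07 and a log2 ratio of -0.082. The FPKM of MLX per FPKM of MLXIP was 0.853 in tdTom cells and 0.598 in the group labelled TTP-tdTom. This log2 change of -0.51 is short of 1.5-fold and was not tested.

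Ratios between members within a group do not depend on how the groups are scaled to each other. There were 1.88 FPKM of MAX per FPKM of MYC in tdTom cells and 2.16 in the group labelled TTP-tdTom. The summed FPKM of the MXD genes and MNT was 26.2 and 20.8, or 0.476 and 0.525 per FPKM of MYC. Without MXI1 these repressors amounted to 0.254 and 0.345 per FPKM of MYC. The share of MXI1 in the summed MXD and MNT mRNA was 46.6% in tdTom cells and 34.2% in the group labelled TTP-tdTom. MXI1 per FPKM of MYC was 0.222 and 0.179. These are mRNA levels, and protein levels were not measured here.

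The spread of ratios across genes of like abundance gives a scale for these values, though it is not a replicate error. Among 4855 symbols with a tdTom FPKM from 5 to 20, the 5th to 95th percentile of the log2 ratio ran from -1.19 to 0.17. MXI1, MLX, MXD3, MGA and MLXIP are all of this class and inside that range. Among 3175 symbols from 20 to 200 it ran from -1.29 to 0.065, with MYC and MAX inside. Among 4073 symbols from 1 to 5 it ran from -1.12 to 0.40, with MXD1, MXD4 and MNT inside.

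Transcript GC content moved with the ratio across all genes. Of the expressed symbols, 11051, or 85.0%, matched a coding transcript of GENCODE release 29, and their median log2 ratio was -0.76 in the decile of lowest GC content and -0.088 in that of the highest. The members span much of this scale, from MGA at 42.0% GC to MXD4 at 64.0%. MNT and MXD4, at 61.4% and 64.0%, are the most GC-rich of the 10 and the genes with the highest ratios. MXI1, at 43.7%, lay -0.44 from the median of its GC decile on the log2 scale, and MLX, at 51.8%, lay -0.46 from its own. MYC, at 53.9%, lay -0.33 from its decile. MXD1 and MGA, at 42.7% and 42.0%, lay above theirs, by 0.38 and 0.23. Relative to its decile 0 of the 10 members reached 1.5-fold, where 7.84% of the 11051 matched symbols were lower and 6.04% higher by that much, and the part of GC content in the differences was not tested.

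**Figure D3:**
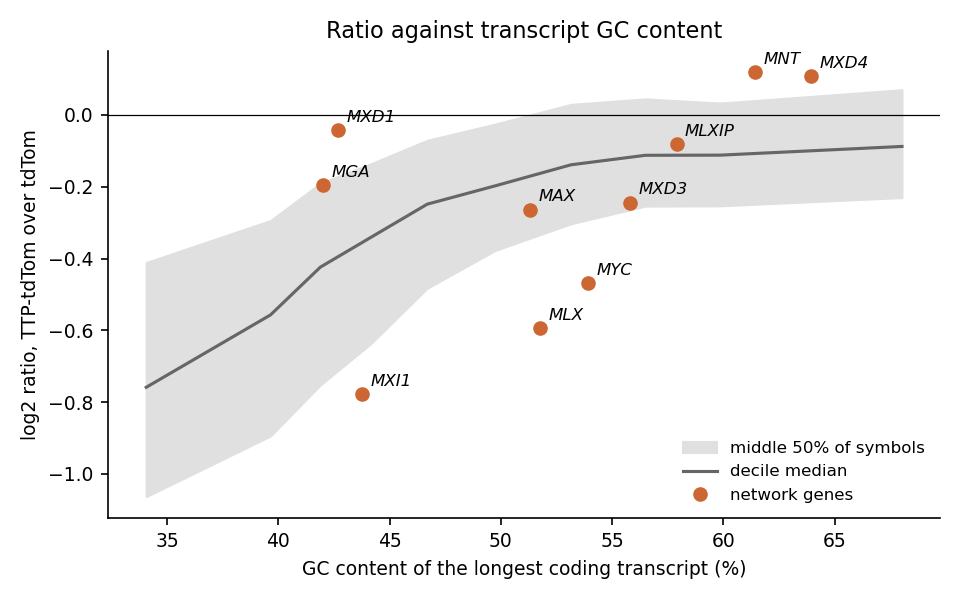
The log2 ratio of the group labelled TTP-tdTom over tdTom against the GC content of the longest coding transcript, with the median of each decile of expressed symbols (line), the middle 50% (band) and the 10 network genes (points). MXI1, MLX and MYC lie below the band, MXD1, MNT and MXD4 above it.

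TTP recognises AU-rich elements, built on the pentamer ATTTA, with the heptamer TATTTAT as a high-affinity form that contains it. Both were sought on the sense strand in the longest annotated 3′ untranslated region of each gene in GENCODE release 29. The heptamer was present in 4 of the 10 members and in 36.3% of the matched symbols, and the pentamer in 8 of the 10 and in 74.0%. MXD4 and MNT, the members with a higher FPKM in the group labelled TTP-tdTom, held 0 pentamers in 3112 and 2841 bases. MYC held 4 pentamers in 476 bases, the densest of the 10, and 0 heptamers. MXI1 and MLX, the members past 1.5-fold, likewise held 0 heptamers, with 4 and 2 pentamers in 2378 and 1636 bases. MXD1 held the most pentamers, 10 in 4661 bases, beside a ratio near 0. MGA held 7, MLXIP and MAX 3 each and MXD3 1. Over all matched symbols the median log2 ratio was -0.44 with a heptamer and -0.17 without, and their median GC content was 43.2% and 51.7%, so the motif and GC content moved together and the part of either was not tested. The 4 members with a heptamer had log2 ratios of -0.26 for MAX, -0.24 for MXD3, -0.20 for MGA and -0.043 for MXD1, all above -0.44. The number of motifs did not order the ratios of the members, and a match in an annotated sequence is not evidence of a bound site.

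**Figure D4:**
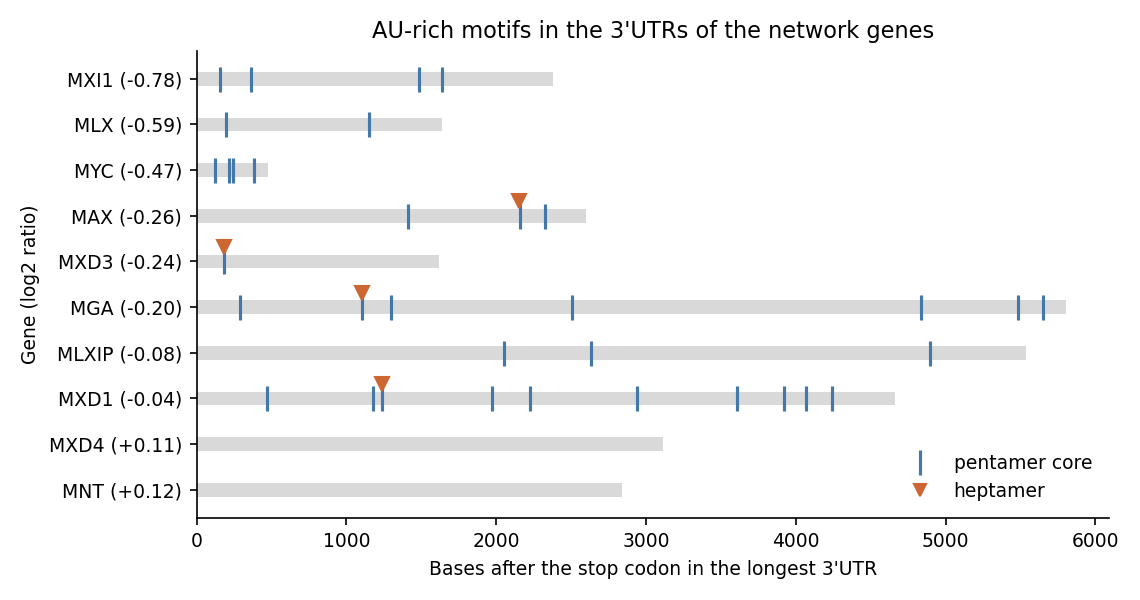
Position of the pentamer (ticks) and the heptamer (triangles) in the longest 3′ untranslated region of each network gene, drawn as a bar from the stop codon, with genes ordered by log2 ratio from MXI1 (-0.78) to MNT (0.12). Heptamers stand in MAX, MXD3, MGA and MXD1, and the bars of MXD4 and MNT are empty.

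The 4 heptamers are shown because they lie in members that stayed within 1.5-fold. Each is given as 25 bases of the sense strand, 5′ to 3′ with the heptamer in capitals, in GRCh38 coordinates of GENCODE release 29, and each lies in the 3′ untranslated region. In order the sites begin 2155, 1105, 1234 and 183 bases after the stop codon.
MAX, chr14:65075633-65075657, minus strand: atgttttgaTATTTATttcctgcta
MGA, chr15:41768376-41768400, plus strand: ctgtaaagaTATTTATatttttgta
MXD1, chr2:69939509-69939533, plus strand: tataaatacTATTTATtcattttat
MXD3, chr5:177306921-177306945, minus strand: ttcaacaagTATTTATtgagtgtct

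For MXI1 and MLX, the members with the lowest ratios, the pentamers are shown in the same form, with the pentamer in capitals. They begin 154, 361, 1484 and 1636 bases after the stop codon of MXI1 and 197 and 1151 bases after that of MLX. All are on the plus strand of GRCh38, and none overlaps another.
MXI1, chr10:110285131-110285155: gaggacctgtATTTAagcaaatact
MXI1, chr10:110285338-110285362: gagtagacacATTTAaggatggggt
MXI1, chr10:110286461-110286485: actttaaataATTTAactaccctta
MXI1, chr10:110286613-110286637: agacaaccatATTTAgcagtgcagt
MLX, chr17:42571790-42571814: cttctgattaATTTAttatattgac
MLX, chr17:42572744-42572768: agctactgcaATTTAgacaatgaaa

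The network binds the E-box CACGTG, which reads the same on both strands. It was sought in RefSeq promoters of GRCh38.p14, 250 bases before to 50 after each start, where 9 of the 10 members had an entry. MYC had none, so its promoter was not searched. MXD4, MNT and MLX held it, 3 of 9 genes against 8.77% of all 27305 symbols with an entry. By promoter this is 3 of the 14 searched for the 9 genes, against 7.26% of all 35116. MAX, MXI1, MXD1, MXD3, MGA and MLXIP held none. The sites lie 238, 193 and 50 bases before the start of MXD4, MNT and MLX, in the promoter. They are given as 26 bases of the gene's strand with the E-box in capitals, as the motif that proteins of the network bind. MXD4 and MNT were slightly higher and MLX lower in the group labelled TTP-tdTom. Whether the motif goes with a direction was not tested.
MXD4, chr4:2262332-2262357, minus strand: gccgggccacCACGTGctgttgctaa
MNT, chr17:2401238-2401263, minus strand: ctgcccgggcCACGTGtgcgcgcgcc
MLX, chr17:42567040-42567065, plus strand: gggcgcgggtCACGTGggcacgccac

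Other genes of the same families were mostly absent. MYCN, MYCL1 and MLXIPL had FPKM of 0.239, 0.667 and 0.230 in tdTom cells and 0.188, 0.852 and 0.165 in the group labelled TTP-tdTom, below the filter, so that MYC was the MYC paralogue and MLXIP the Mondo paralogue with appreciable mRNA. The MYC-binding genes MYCBP and MYCBP2 had log2 ratios of -0.36 and -0.54. Of 7 expressed related factors that also bind E-boxes, 1 was lower by at least 1.5-fold, or 14.3% against 22.8% of all expressed symbols: MITF, with an FPKM of 3.60 and 1.82. Relative to GC deciles 0 of the 7 were lower by that much, against 7.84% of matched symbols. The log2 ratios of SREBF2 and SREBF1 were -0.57 and -0.26, those of TFE3 and TFAP4 -0.043 and 0.070, and USF1 was the highest with 0.30.

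The proteins that MXD1, MXI1, MXD3, MXD4 and MNT recruit were followed through a list of 14 genes of the SIN3 co-repressor. Of these, 5 were lower and 0 higher by at least 1.5-fold, or 35.7% lower against 22.8% of all expressed symbols, with a median log2 ratio of -0.49. The deacetylase gene HDAC2 (-1.04), ING1 (-1.04) and SAP18 (-0.80) were the lowest, while SIN3A (-0.048), RBBP7 (-0.25) and BRMS1 (0.026) were the highest. SIN3A, the scaffold that binds the MXD proteins, had an FPKM of 17.8 and 17.2. The median GC content of the list was 46.2%, and relative to GC deciles 1 of its genes was lower by at least 1.5-fold, against 7.84% of matched symbols. Relative to the median of all expressed symbols 2 of the 14 were, against 13.6%.

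MGA acts in a variant Polycomb complex, and 12 genes of that complex were listed, HDAC1 and HDAC2 being shared with the SIN3 list. Of these, 7 were lower and 0 higher by at least 1.5-fold, or 58.3% lower against 22.8% of all expressed symbols, with a median log2 ratio of -0.77, whereas MGA itself had -0.20. The lowest were TFDP1 (-1.11), YAF2 (-1.11) and HDAC2 (-1.04), and the highest L3MBTL2 (-0.024), CBX1 (-0.15) and RING1 (-0.26). The median GC content of the list was 43.2%, and relative to GC deciles its median was -0.25, with 1 gene of the 12 lower by at least 1.5-fold, against 7.84% of matched symbols. Relative to the median of all expressed symbols 5 of the 12 were lower by that much, against 13.6%.

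Of 13 expressed co-activators of MYC, 3 were lower by at least 1.5-fold and 0 higher, or 23.1% lower against 22.8% of all expressed symbols, with a median log2 ratio of -0.28. Relative to GC deciles 1 of the 13 was lower by that much, against 7.84% of matched symbols. The acetyltransferase gene KAT2B (-1.17), ACTL6A (-0.98) and CCNT1 (-0.62) were the lowest, and WDR5 (-0.0069), RUVBL2 (-0.035) and EP400 (-0.20) the highest. Of 16 genes that control the stability of the MYC protein, 3 were lower by at least 1.5-fold, with a median of -0.20. This is 18.8%, below the 22.8% of all expressed symbols, and 0 of the 15 with a matched transcript were lower by that much relative to GC deciles, against 7.84%. KIAA1524, which encodes the phosphatase inhibitor CIP2A (-0.92), the kinase gene GSK3B (-0.91) and the ubiquitin ligase gene SKP2 (-0.63) were the lowest, and RBX1 (-0.031), USP36 (-0.036) and STUB1 (0.23) the highest.

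Genes that MYC is known to activate had a median near that of all genes. Of 33 expressed genes of the list, 5 were lower and 0 higher by at least 1.5-fold, with a median log2 ratio of -0.25. This is 15.2%, below the 22.8% of all expressed symbols, and 1 of the 33 was lower by that much relative to GC deciles, against 7.84% of matched symbols. PPAT, of purine synthesis (-1.42), POLR3G, of RNA polymerase III (-1.21), and the mitochondrial factor gene TFAM (-1.10) were the lowest, and PPAN (0.14), NME1 (0.030) and PES1 (-0.0037), a ribosome assembly gene, the highest. Of 7 expressed genes that MYC is known to repress, 3 were lower by at least 1.5-fold and 0 higher, or 42.9% lower against 22.8% of all expressed symbols, with a median of -0.58, and 2 of the 7 were lower by that much relative to GC deciles, against 7.84% of matched symbols. GADD45A (-1.40), KLF4 (-1.15) and CDKN1B (-0.73) were the lowest, and CDKN1A (-0.31), CEBPD (-0.40) and NDRG1 (-0.49) the highest, so the list of repressed genes also lay below the median of all symbols.

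For the MLX and MLXIP arm, 4 of 5 genes listed here as targets were expressed, and whether each is a target in these cells was not tested. Lower by at least 1.5-fold were 2 of the 4, HK2 and TXNRD1, against 22.8% of all expressed symbols. Relative to GC deciles 2 of the 4 were so, against 7.84% of matched symbols. TXNIP, the classical target, had an FPKM of 7.58 and 6.33 and a log2 ratio of -0.26. ARRDC4 was below the filter at 0.337 and 0.496. HK2, KLF10 and TXNRD1 had log2 ratios of -0.93, -0.57 and -1.85, and TXNRD1, a gene of redox control, was the lowest of all listed genes. The TTP paralogues ZFP36L1 and ZFP36L2 had log2 ratios of -0.79 and -1.25 beside -0.0044 for ZFP36.

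**Figure D5:**
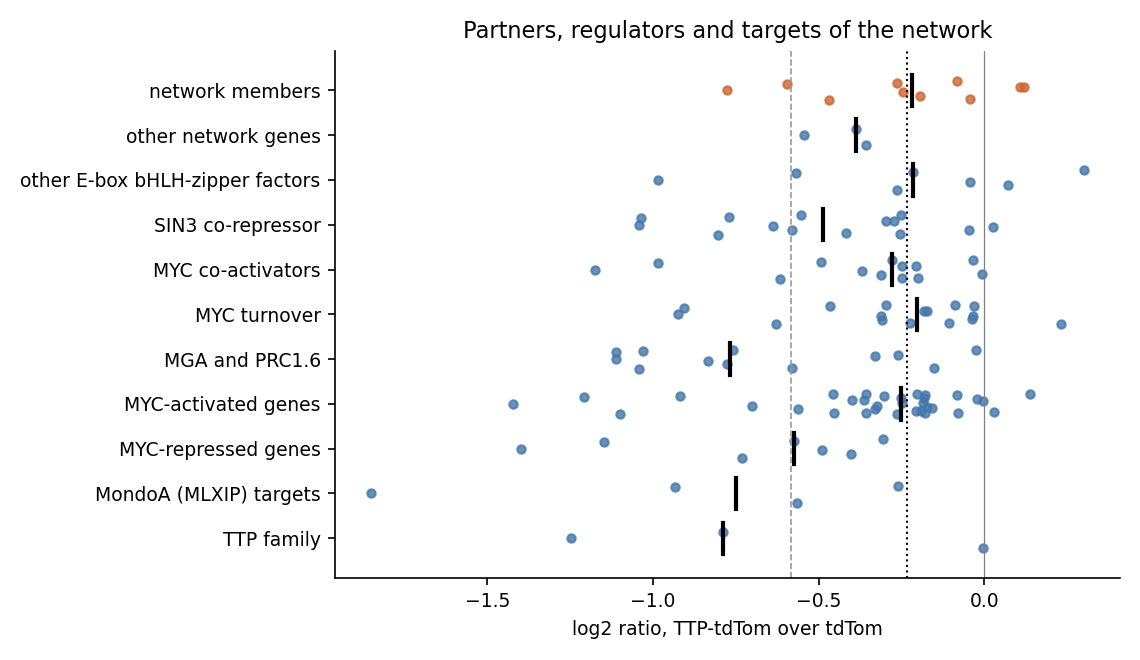
Log2 ratio of the group labelled TTP-tdTom over tdTom for each expressed gene of the lists, with 1 point per gene, black bars for list medians, a dotted line at the median of all expressed symbols (-0.23) and a dashed line at 1.5-fold lower. The medians of the network members and the MYC-activated genes lie near the dotted line, and those of the SIN3, MGA and PRC1.6, MYC-repressed, MLXIP target and TTP family lists to its left, with single genes such as L3MBTL2, CBX1 and ZFP36 to its right.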

How the data were processed

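Per the labels and the study's methods, strand-specific paired-end libraries were aligned by the authors with TopHat2 2.0.13 to Hs37D5 (GRCh37 with decoy sequence), and Cufflinks 2.2.1 was used for assembly and comparison. The authors deposited 1 FPKM value per group for each of 406165 loci, pooled over 3 samples. How libraries were scaled is not given in the sources used here. The table's further columns hold the authors' own fold changes, test statistics, p-values and q-values, which were not used.

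Here 1 locus was kept per symbol (22933 symbols), symbols reaching 1 FPKM in either group and above 0 in each were kept, and the log2 ratio was taken without a pseudocount. No test was run here, since there is 1 FPKM value per group. Calls are by 1.5-fold, shown beside the share over all expressed symbols. Members and gene lists were chosen with earlier results of these data known. Named genes were the members, the TTP family, the expressed genes of the short lists and the 3 lowest and 3 highest of the others. Locus starts are counted from 1. Sequences came from GENCODE release 29 and RefSeq (GRCh38) and were joined by symbol only. Alternatives covered scaling, locus choice, pseudocount, fold and filter. Python 3.11.15, numpy 2.4.6 and pandas 2.3.3 were used, and the functions were tested on simulated data.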

Additional observations from a re-analysis of the deposited data

How the results depend on the processing

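No paired analysis was possible because the deposited table holds 1 value per group, and for the same reason no replicate could be left out. The number of members lower by at least 1.5-fold, 2, was 0 after subtracting the median of expressed symbols, 0 with upper quartile scaling (a shift of -0.40 on the log2 scale), 0 at 2-fold, 3 with MYC added at a smaller fold (at most 80% of the tdTom level), 1 with the same FPKM sum over the loci used, 1 with a pseudocount of 1 and, chosen after seeing the data, 0 relative to GC deciles. The member past 1.5-fold with the FPKM sum and with the pseudocount was MXI1. Of all expressed symbols, 22.8% were lower by at least 1.5-fold as deposited and 13.6% after subtracting the median. Relative to GC deciles 7.84% of matched symbols were. No such share was taken for the other scalings, folds and pseudocounts, so those member counts have no background here. Calls below are again by 1.5-fold. The number of members higher by that much was 0 throughout. MYC, MXI1 and MLX were below 0 under all 8 alternatives, with log2 ratios from -0.47 to -0.073, -0.78 to -0.38 and -0.59 to -0.20. MNT and MXD4 were above 0 under all 8, from 0.094 to 0.51 and 0.087 to 0.50. For MNT and MXD4 that sign was fixed beforehand and is no sign of stability. Each rescaling raised their ratios, a pseudocount cannot change a sign, and each has 1 locus. Under upper quartile scaling MAX and MXD3 turned positive, at 0.13 and 0.15, and so did MXD1, MGA and MLXIP, at 0.35, 0.20 and 0.31, and relative to GC deciles MXD1, MGA and MLXIP were at 0.38, 0.23 and 0.030. The share of symbols higher by at least 1.5-fold, 3.90%, was 13.1% without a minimum FPKM and 0.730% at a minimum of 5. The cause of these shifts was not tested. The deposited table gives no counts, so no precision from depth can be set on any value.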
